A study of Mus musculus with 6 samples.

Results

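The genes that make, regulate and break down polyamines were examined in mouse skin, comparing wild type with YAP2-5SA-∆C animals. The 8 genes (*Odc1*, *Amd1*, *Srm*, *Sms*, *Sat1*, *Oaz1*, *Oaz2* and *Azin1*) were chosen by name for their role. The choice rule did not use their measured values, but earlier results of these data were known when the choice was made. The genes were matched by Ensembl identifier to GENCODE M21 on GRCm38. All 8 were among the 26579 genes of the count table and all 8 were expressed highly enough to be tested. RNA-Seq was done on whole skin punch biopsies of the dorsal neck from 3 wild type (WT) and 3 YAP2-5SA-∆C (TG) mice, female littermates of 33 days of age (P33). The TG mice overexpress a mildly activated YAP protein in basal keratinocytes and had begun to show their visible skin phenotype, while the WT littermates carry no transgene. YAP is the transcriptional cofactor at the end of the Hippo pathway. Each library holds RNA of every cell type of the biopsy, so in these bulk samples fewer cells of a type and less RNA per cell cannot be told apart.

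Polyamines (putrescine, spermidine and spermine) are small cations that growing cells need for RNA folding and translation. Ornithine decarboxylase turns ornithine into putrescine, and spermidine synthase and spermine synthase add aminopropyl groups that come from decarboxylated S-adenosylmethionine. Antizymes, made when polyamines are plentiful, bind ornithine decarboxylase and send it to the proteasome, and antizyme inhibitor takes the antizymes up. In mouse skin, ornithine decarboxylase is known from the growing hair follicle and from epidermal tumour promotion.

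*Azin1*, *Oaz2* and *Odc1* had lower CPM in every TG library than in any WT library, with log2 fold changes (TG over WT) of -0.32, -0.40 and -0.22, and the other 5 genes overlapped between the genotypes. None of the 8 genes passed the main test between genotypes. In edgeR's quasi-likelihood test with Benjamini-Hochberg adjustment over all 15102 tested genes (FDR, threshold 0.05), 0 of the 8 were called, where 1.91% of all tested genes were (0.464% lower and 1.44% higher). At an unadjusted p under 0.05 the same test gave 3 of the 8, namely *Azin1*, *Oaz2* and *Odc1*, all lower in TG skin, beside 13.0% of all tested genes for lower values. These are the 3 genes without overlap, and 18.2% of all tested genes likewise had all TG libraries below all WT libraries. Voom and edgeR's likelihood-ratio test also called 0 of the 8, where voom called 1.65% of all tested genes and the likelihood-ratio test 10.4% (4.87% lower and 5.52% higher). DESeq2's Wald test called 2 of the 8, *Azin1* and *Oaz2*, both lower, beside 4.26% of its 14807 genes with an adjusted p for lower values. The log2 fold changes were negative for 6 genes and positive for 2, with a median of -0.10 over the 8 genes and -0.01 over all tested genes, of which 52.4% were negative.

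**Figure D1:**
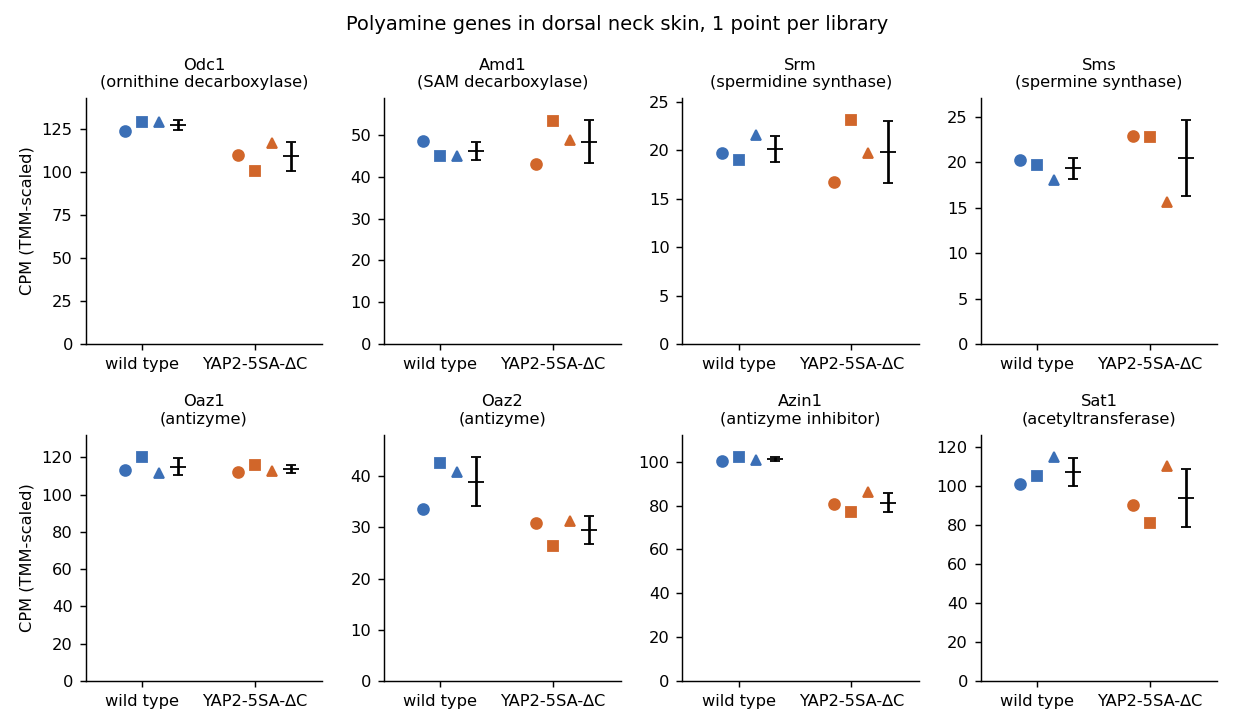
CPM (counts scaled to library size with TMM factors, linear axes from 0) of each of the 8 genes, 1 point per library with blue for wild type and orange for YAP2-5SA-∆C, circle, square and triangle for replicates 1, 2 and 3, and black bars for mean ± SD (n = 3). The orange points of *Odc1*, *Oaz2* and *Azin1* all lie below the blue points, and those of the other 5 genes overlap with them.

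The libraries held between 11225705 and 19505036 counts on genes, and the 8 genes had between 190 (*Sms*) and 2464 (*Odc1*) counts in a library. Defining markers of the labelled tissue were present, with the 7 basal keratinocyte markers summing to 3593 to 4358 CPM in WT and 5903 to 7540 CPM in TG skin. Several cell type programmes differed in level between the libraries. The 11 hair shaft and inner root sheath markers with a row in the table summed to 13423 to 17307 CPM in WT and 1412 to 9004 CPM in TG skin, with the lowest sum in TG replicate 2. All 11 had negative log2 fold changes and 0 passed the quasi-likelihood test.

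*Odc1* (ENSMUSG00000011179, chromosome 12 from 17544794 to 17551505, plus strand) codes for ornithine decarboxylase, the rate-limiting enzyme that makes putrescine. It had 124, 129 and 129 CPM in the WT libraries and 110, 101 and 117 CPM in the TG libraries. The WT libraries lay close together, and all TG libraries lay below them. The means were 127 ± 2.93 CPM in WT and 109 ± 8.28 CPM in TG skin (SD, n = 3 each), giving a log2 fold change of -0.22 (standard error, SE, 0.07, 95% interval -0.38 to -0.06). In edgeR's quasi-likelihood test its FDR was 0.107 and its unadjusted p 0.0153. The adjusted p of *Odc1* ranged from 0.103 to 0.414 over all settings tried. Its unadjusted p was 0.116 in edgeR's likelihood-ratio test, and in edgeR's quasi-likelihood test 0.0597 without WT replicate 3, 0.0566 without TG replicate 1 and 0.0524 without TG replicate 2. The log2 fold change ran from -0.27 to -0.15 when single libraries were left out, and was smallest without TG replicate 2.

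The aminopropyl branch was measured through *Amd1*, *Srm* and *Sms*. *Amd1* (ENSMUSG00000075232, chromosome 10 from 40287458 to 40302186, minus strand) codes for S-adenosylmethionine decarboxylase, which makes the aminopropyl donor. It had 48.5, 44.9 and 44.8 CPM in WT and 43.1, 53.2 and 48.7 CPM in TG skin, a log2 fold change of 0.07 (95% interval -0.14 to 0.28). *Srm* (ENSMUSG00000006442, chromosome 4 from 148591503 to 148594993, plus strand), spermidine synthase, had 19.7, 18.9 and 21.6 CPM in WT and 16.7, 23.1 and 19.7 CPM in TG skin, a log2 fold change of -0.02 (95% interval -0.32 to 0.28) whose sign turned under upper-quartile scaling. *Sms* (ENSMUSG00000071708, chromosome X from 157443855 to 157492287, minus strand), spermine synthase, had 20.2, 19.7 and 18.1 CPM in WT and 22.9, 22.8 and 15.7 CPM in TG skin, a log2 fold change of 0.08 (95% interval -0.28 to 0.44). Leaving out single libraries moved this value of *Sms* between 0.01 (without TG replicate 2) and 0.24 (without TG replicate 3), and that of *Amd1* between 0.01 (without TG replicate 2) and 0.17 (without TG replicate 1). The genotypes overlapped for all 3 genes, and in each of them the highest and the lowest value both came from TG libraries.

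The quasi-likelihood FDR in edgeR was 0.657 for *Amd1*, 0.939 for *Srm* and 0.767 for *Sms*. The intervals leave room for differences in either direction, up to 1.36-fold for *Sms*. The *Srm* to *Sms* ratio inside each library, which does not depend on the scaling between libraries, was in CPM per kb of exon 3.67, 3.61 and 4.49 in WT and 2.74, 3.80 and 4.73 in TG libraries. These ranges overlapped (difference of log2 ratios -0.09, two-sided exact permutation test, p = 0.9, adjusted p = 0.9 over the 5 ratios tested). Leaving out single libraries moved this difference between -0.28 (without TG replicate 3) and 0.12 (without TG replicate 1), so that its sign turned. The counts of *Amd1* miss an unknown share of its reads, since only uniquely mapped reads were counted and 81.9% of the 75-base words (75 bases is the read length) of its principal transcript also occur in other genes, chiefly *Amd2*. *Amd2* itself had 5 to 10 counts in a library.

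*Oaz1* (ENSMUSG00000035242, chromosome 10 from 80826656 to 80829290, plus strand) and *Oaz2* (ENSMUSG00000040652, chromosome 9 from 65668001 to 65690300, plus strand) code for antizymes, proteins that are only completed when ribosomes shift frame by +1 base in the coding sequence. The GENCODE annotation marks that place by leaving 1 base out of the transcript, which makes the site findable by its gap. The sites are printed because the shift of frame there is part of how antizymes are made when polyamines are plentiful. They run 5′ to 3′ with 15 bases on either side of the base left out and capitals for the 3 bases on either side of it. The base left out is not among the printed letters. In *Oaz1* the span is chr10:80828280-80828310 on the plus strand of GRCm38, and in *Oaz2* it is chr9:65686257-65686287 on the plus strand.
*Oaz1*: cctcggtggtgcTCCGATgtccctcaccca
*Oaz2*: cctctgtggtgcTCCGATgcccctcaccca

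The capitals are the same in both genes. In *Oaz1* the gap follows 68 codons and in *Oaz2* 32 codons of the principal transcript. Over the whole coding sequence, 66.0% of 564 aligned bases were identical and no 75-base word was shared. The counts measure the RNA of the antizymes and not how often the frame is shifted.

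The values of the antizymes are given side by side, and the difference between their changes was not tested. *Oaz1* had 113, 120.2 and 112 CPM in WT and 112, 116 and 113 CPM in TG libraries, a narrow range in which the genotypes overlapped. The log2 fold change of -0.02 (SE 0.05) had a quasi-likelihood FDR of 0.868 (edgeR), and its sign turned under upper-quartile scaling. The 95% interval of the fold ran from 0.903 to 1.08. Of the 75-base words of *Oaz1*, 47.5% also occur in the pseudogene *Oaz1-ps*, so part of its reads could not be counted as unique.

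*Oaz2* had 33.5, 42.6 and 40.7 CPM in WT and 30.9, 26.3 and 31.1 CPM in TG libraries. All TG libraries lay below WT, with WT replicate 1 the lowest of the WT libraries and nearer to TG replicates 1 and 3 than to the other WT libraries. The means were 38.9 ± 4.79 CPM in WT and 29.5 ± 2.74 CPM in TG skin (SD, n = 3 each), giving a log2 fold change of -0.40 (SE 0.11, 95% interval -0.67 to -0.13). Its FDR was 0.0863 in edgeR's quasi-likelihood test, and its unadjusted p there was 0.0093. DESeq2's Wald test gave an adjusted p of 0.0495, voom 0.0949 and edgeR's likelihood-ratio test 0.106. Over all settings tried, the adjusted p ranged from 0.0495 to 0.249.

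*Azin1* (ENSMUSG00000037458, chromosome 15 from 38487427 to 38519266, minus strand) codes for antizyme inhibitor, a relative of ornithine decarboxylase without its activity. It had 100.3, 102 and 101 CPM in WT and 80.5, 77.2 and 86.0 CPM in TG libraries. The WT libraries lay within 2 CPM of each other and well above every TG library. The means were 101 ± 0.96 CPM in WT and 81.3 ± 4.42 CPM in TG skin (SD, n = 3 each), giving a log2 fold change of -0.32 (SE 0.06, 95% interval -0.46 to -0.18). In edgeR's quasi-likelihood test its FDR was 0.0505, the lowest of the 8 genes and above the threshold, with an unadjusted p of 0.0011. DESeq2's Wald test gave an adjusted p of 0.0073, voom 0.0534 and edgeR's likelihood-ratio test 0.143. The range over all settings tried was 0.0073 to 0.190. Leaving out single libraries moved the log2 fold change between -0.36 and -0.26. An antisense gene, *Gm49077*, shares 358 of the 6256 exon bases of *Azin1*, and the strand setting of the counting is not given in the sources used here.

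**Figure D2:**
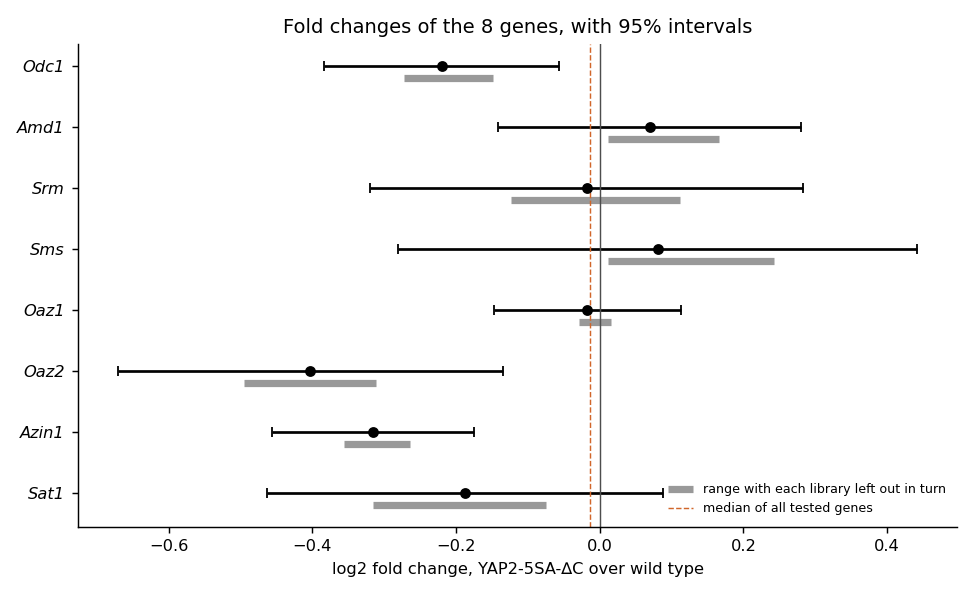
Log2 fold change (YAP2-5SA-∆C over wild type) of the 8 genes from edgeR's quasi-likelihood fit, with black points and 95% intervals (n = 3 libraries a group), grey bars for the range when each library is left out in turn, and the dashed line at the median of all tested genes (-0.01). The intervals of *Odc1*, *Oaz2* and *Azin1* lie below 0, the grey bars of these genes do so too, and the grey bars of *Srm* and *Oaz1* span 0.

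*Odc1* and *Azin1* were set against *Oaz1* within each library. The *Odc1* to *Oaz1* ratio, in CPM per kb, was 0.822, 0.806 and 0.867 in WT and 0.734, 0.653 and 0.781 in TG libraries. The *Azin1* to *Oaz1* ratio was 0.362, 0.347 and 0.370 in WT and 0.293, 0.272 and 0.312 in TG libraries. Neither ratio overlapped between the genotypes, with differences of the log2 ratios of -0.21 for *Odc1* and -0.30 for *Azin1* (exact permutation tests, two-sided, p = 0.1 each, the lowest p possible with 3 libraries against 3, adjusted p = 0.167 over the 5 ratios). Leaving out single libraries moved the difference of *Odc1* to *Oaz1* between -0.26 and -0.13, the smallest being without TG replicate 2, and that of *Azin1* to *Oaz1* between -0.35 and -0.25. *Odc1* and *Azin1* are related in sequence, with 61.6% of 1332 aligned coding bases identical and no 75-base word in common. Of the words of *Odc1*, 30.5% occur in 13 other genes, while those that *Azin1* shares are with its antisense gene.

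*Sat1* (ENSMUSG00000025283, chromosome X from 155213132 to 155216449, minus strand) codes for spermidine/spermine acetyltransferase, the first step of polyamine breakdown and export. It had 101, 105 and 115 CPM in WT and 90.4, 81.1 and 110.2 CPM in TG libraries. TG replicate 3 lay among the WT libraries and the other TG libraries lay below them. The log2 fold change of -0.19 (SE 0.12, 95% interval -0.46 to 0.09) had a quasi-likelihood FDR of 0.347 (edgeR). Without TG replicate 3 the log2 fold change was -0.32 with an FDR of 0.113, and without TG replicate 2 it was -0.08 with an FDR of 0.745. The *Sat1* to *Odc1* ratio was 1.00, 1.00 and 1.09 in WT and 1.01, 0.988 and 1.15 in TG libraries. This ratio overlapped between the genotypes (difference of log2 ratios 0.03, two-sided exact permutation test, p = 0.8, adjusted p = 0.9 over the 5 ratios). Leaving out single libraries moved the difference between -0.04 (without TG replicate 3) and 0.07.

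Levels of different genes were compared per length, as CPM per kb of merged exons. *Oaz1* was the highest, between 43.7 and 47.0 CPM per kb in the 6 libraries. *Sat1* (29.2 to 41.4) and *Odc1* (29.6 to 37.9) followed and overlapped with each other but not with *Oaz1*. *Azin1* (12.3 to 16.3), *Amd1* (12.2 to 15.03), *Srm* (10.4 to 14.4) and *Oaz2* (8.80 to 14.2 CPM per kb) came next, each overlapping with the next in this order. *Sms* was the lowest of the 8, between 2.61 and 3.81 CPM per kb, and did not overlap with *Oaz2*. This order is that of uniquely counted reads, and reads that fall on sequence shared with other genes are missing to a different extent from each gene. The share of 75-base words that also occur in other genes was 81.9% for *Amd1*, 47.5% for *Oaz1*, 30.5% for *Odc1*, 28.2% for *Sms*, 6.11% for *Oaz2*, 5.94% for *Azin1*, 2.67% for *Sat1* and 0 for *Srm*. For *Azin1* the only such gene is the antisense gene *Gm49077* at the same place in the genome. Whether reads were lost there depends on the strand setting of the counting. The order of the RNA levels themselves was not tested. With the length of the principal transcript in place of merged exons, *Sat1* and *Odc1* no longer overlapped and *Oaz2* moved up to rank 5.

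The 3 genes without overlap were set beside the marker sums of the same libraries. TG replicate 2 had the lowest sum of the hair shaft and inner root sheath markers and also the lowest value of *Odc1*, *Oaz2*, *Azin1* and *Sat1*. This was not particular to the hair markers, since the same library had the lowest melanocyte and cell cycle sums. It also had the highest sums of the basal keratinocyte, macrophage, T cell, sebaceous gland, mast cell and fibroblast markers. The suprabasal keratinocyte markers summed to 4277 to 5203 CPM in WT and 5712 to 10393 CPM in TG skin, with the highest sum in TG replicate 2, and 6 of 6 with a row had positive log2 fold changes. The 9 macrophage markers summed to 475 to 564 CPM in WT and 642 to 743 CPM in TG skin, with 9 of 9 positive and 2 called higher by the quasi-likelihood test (*Csf1r* and *Mrc1*). The melanocyte markers summed to 408 to 478 CPM in WT and 151 to 261 CPM in TG skin, with 5 of 5 negative and 2 called lower (*Tyrp1* and *Dct*). The cell cycle markers summed to 1032 to 1132 CPM in WT and 903 to 1121 CPM in TG skin, with 2 of 7 positive. Sums without overlap, higher in TG skin, were also those of the basal keratinocyte markers given above (7 of 7 positive, *Krt14* called higher), of the sebaceous gland markers (203 to 392 CPM in WT and 526 to 622 CPM in TG skin, 5 of 6 positive, 0 called) and of the endothelial markers (91.6 to 102 and 106 to 131 CPM, 5 of 5 positive, 0 called). The mast cell markers summed to 154 to 173 CPM in WT and 197 to 248 CPM in TG skin (4 of 5 tested positive, *Cma1* called higher), and the neutrophil markers to 9.02 to 13.0 and 21.1 to 29.9 CPM (2 of 2 tested positive, *Cxcr2* called higher). The stress keratinocyte markers overlapped, with 1221 to 1624 CPM in WT and 1342 to 2535 CPM in TG skin (6 of 7 positive, *Krt6b*, *Krt16* and *Sprr1b* called higher). The sums of T cell (54.7 to 84.7 CPM in WT and 80.0 to 122 CPM in TG skin), fibroblast (9449 to 12801 and 12256 to 15936 CPM), adipocyte (649.6 to 899 and 573 to 938 CPM) and skeletal muscle markers (1330.01 to 6486 and 1275 to 3293 CPM) overlapped too, with 0 called in each list. Of the tested markers, 4 of 4 were positive for T cells, 6 of 6 for fibroblasts, 4 of 6 for adipocytes and 0 of 6 for skeletal muscle. The low WT sum of skeletal muscle markers was that of WT replicate 1, beside 6486 and 5308 CPM in WT replicates 2 and 3. The part of these markers in the values of the 8 genes was not tested. Without TG replicate 2, the log2 fold changes were -0.26 for *Azin1*, -0.31 for *Oaz2* and -0.15 for *Odc1*. None of these passed the quasi-likelihood test, in which 2.74% of the genes tested without that library were called lower.

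**Figure D3:**
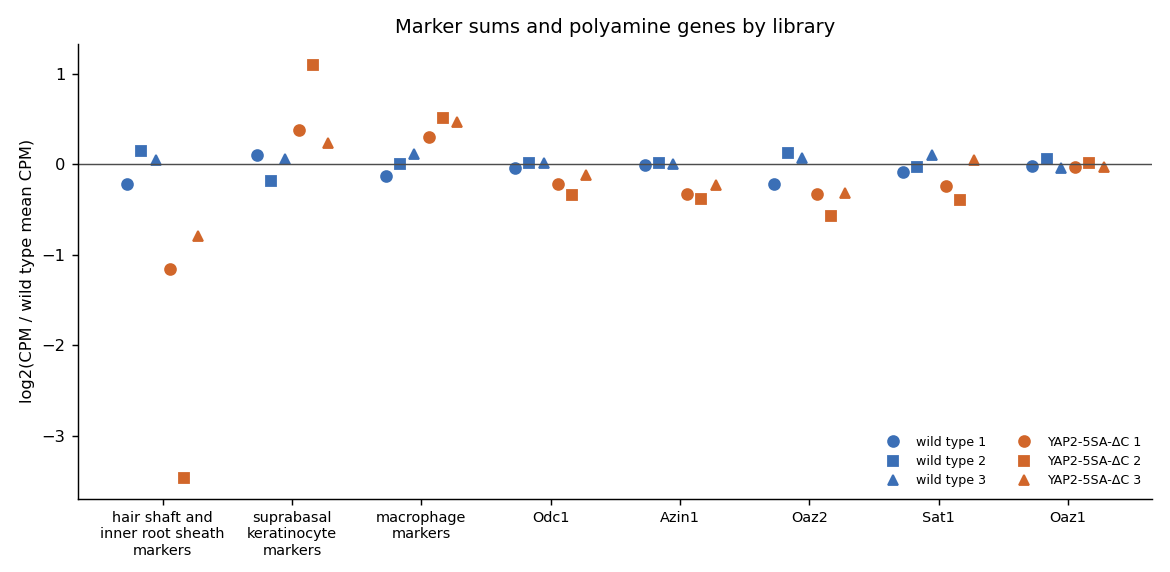
Log2 ratio of each library to the mean of the wild type libraries, for the summed CPM of 3 marker lists and for the CPM of 5 of the 8 genes, with blue for wild type, orange for YAP2-5SA-∆C and the symbol giving the replicate. The orange square, YAP2-5SA-∆C replicate 2, is lowest for the hair shaft and inner root sheath markers and for *Odc1*, *Azin1*, *Oaz2* and *Sat1*, and highest for the suprabasal keratinocyte and macrophage markers.

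The genes around the 8 were taken from lists of the wider pathway. Of 48 further genes, 40 were expressed highly enough to be tested and 0 of them passed edgeR's quasi-likelihood test. At an unadjusted p under 0.05 the test gave 11 lower and 2 higher genes, where it gave 13.0% of all tested genes for lower and 13.3% for higher values. The median log2 fold change of the 40 was -0.08, with 24 negative and 16 positive values. Their groups did not overlap for 15 genes, 12 with TG below WT and 3 with TG above WT, beside 18.2% and 15.5% of all tested genes. The genes described from each list are those with the highest mean CPM.

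Polyamine breakdown had 3 tested genes besides *Sat1*, and none reached an unadjusted p under 0.05. *Smox*, spermine oxidase, had 40.1, 38.9 and 42.9 CPM in WT and 40.5, 49.3 and 46.0 CPM in TG libraries, which overlapped (log2 fold change 0.16, FDR 0.298 in edgeR's quasi-likelihood test). Its log2 fold change was 0.11 without TG replicate 2 and 0.25 without TG replicate 1. Transport of polyamines and cationic amino acids had 9 tested genes, 4 of them lower and 1 higher at an unadjusted p under 0.05, beside 13.0% and 13.3% of all tested genes. *Slc3a2*, the heavy chain of several amino acid transporters, had 97.4, 87.8 and 90.5 CPM in WT and 71.7, 60.4 and 75.3 CPM in TG libraries, all TG libraries being below WT (log2 fold change -0.41, SE 0.09, FDR 0.0620 in edgeR's quasi-likelihood test). *Atp13a3*, a polyamine transporter of the P-type ATPase family, overlapped between the genotypes, with 121 ± 6.86 CPM in WT and 123 ± 6.90 CPM in TG skin (SD, n = 3 each).

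Arginine, ornithine, proline and nitric oxide metabolism had 15 tested genes, *Azin2* among them, 3 lower and 1 higher at an unadjusted p under 0.05, beside 13.0% and 13.3% of all tested genes. *Ass1*, argininosuccinate synthase of arginine synthesis, had 47.0, 79.0 and 66.6 CPM in WT and 36.6, 17.7 and 42.8 CPM in TG libraries. TG replicate 2 was lowest and the genotypes did not overlap (log2 fold change -0.99, SE 0.33, quasi-likelihood FDR 0.123 in edgeR). The edgeR likelihood-ratio test called *Ass1* lower, with an adjusted p of 0.0101, where it called 4.87% of all tested genes lower. Voom gave an adjusted p of 0.112 and DESeq2's Wald test 0.135. Over all settings tried, the adjusted p of *Ass1* ranged from 0.0101 to 0.312. *Oat*, ornithine aminotransferase, which links ornithine to proline, overlapped, with 112 ± 8.77 CPM in WT and 105 ± 3.23 CPM in TG skin (SD, n = 3 each, FDR 0.421 in edgeR's quasi-likelihood test).

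The methionine cycle and salvage list had 9 tested genes, 3 of them lower at an unadjusted p under 0.05, beside 13.0% of all tested genes. *Mat2a*, which makes S-adenosylmethionine, had 163, 148 and 146 CPM in WT and 125, 129 and 143 CPM in TG libraries, without overlap but with TG replicate 3 close to the lowest WT library (log2 fold change -0.21, FDR 0.139 in edgeR's quasi-likelihood test). Its regulatory partner *Mat2b* overlapped, with 37.1 ± 0.517 CPM in WT and 35.6 ± 1.70 CPM in TG skin (SD, n = 3 each). The hypusine list covers the spermidine-dependent modification of the translation factor eIF5A. It had 4 tested genes, 1 of them lower at an unadjusted p under 0.05, beside the same 13.0% of all tested genes. *Eif5a* itself had 269.6 ± 15.8 CPM in WT and 277 ± 14.96 CPM in TG skin (SD, n = 3 each, log2 fold change 0.04), which overlapped, and leaving out single libraries moved its log2 fold change between 0.01 (without WT replicate 2) and 0.10 (without TG replicate 1). *Dohh*, the hydroxylase that completes hypusine, had 31.4, 35.9 and 31.1 CPM in WT and 25.5, 25.8 and 26.1 CPM in TG libraries, all TG libraries being below WT (log2 fold change -0.35, FDR 0.0615 in edgeR's quasi-likelihood test).

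The lowest quasi-likelihood FDR of the 40 genes was that of *Ddah1*, which breaks down methylarginines that inhibit nitric oxide synthases and was singled out after its values were seen. It had 9.84, 8.16 and 7.90 CPM in WT and 12.8, 17.4 and 13.9 CPM in TG libraries, all TG libraries being above WT. The log2 fold change was 0.76 (SE 0.15, FDR 0.0526 in edgeR's quasi-likelihood test), and its adjusted p was 0.0018 in edgeR's likelihood-ratio test and 0.0016 in DESeq2's Wald test. Voom gave an adjusted p of 0.0589, and over all settings tried the adjusted p of *Ddah1* ranged from 0.0016 to 0.190. The cationic amino acid transporters, which carry arginine into cells and were also singled out after their values were seen, differed in sign. *Slc7a1* had 64.5 ± 5.45 CPM in WT and 49.3 ± 3.09 CPM in TG skin (SD, n = 3 each, log2 fold change -0.39, FDR 0.0582 in edgeR's quasi-likelihood test). *Slc7a2* had 35.0, 28.0 and 32.1 CPM in WT and 47.7, 73.1 and 35.9 CPM in TG libraries, with TG replicate 2 the highest (log2 fold change 0.72, FDR 0.125 in edgeR's quasi-likelihood test). The adjusted p of *Slc7a2* was 0.0259 in edgeR's likelihood-ratio test and 0.151 in voom, and ranged from 0.0167 to 0.312 over all settings tried. The log2 fold change of *Slc7a2* was 0.42 without TG replicate 2 and 0.93 without TG replicate 3. DESeq2's Wald test called 7 of the 40 genes, *Slc3a2*, *Slc7a1*, *Atp13a2*, *Ckb* and *Dohh* lower and *Slc7a2* and *Ddah1* higher, where it called 4.26% of its genes lower and 6.48% higher.

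The genes whose levels followed *Odc1* most closely over the 6 libraries (Pearson's r of log2(CPM + 0.5)) were *Acat1*, *BC055324* and *Crhr1*, with r of 0.998, 0.997 and 0.996. *Acat1*, a mitochondrial thiolase, had 109, 115 and 114 CPM in WT and 97.2, 88.1 and 104 CPM in TG libraries, the same order of TG libraries as *Odc1*. Such values are a description, since all points share the genotype difference, and 580 of 15101 genes had r above 0.95 with *Odc1*.

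Promoter windows of 6 of the 8 genes (*Amd1*, *Oaz1*, *Oaz2*, *Odc1*, *Sat1* and *Sms*) were matched in the RefSeq table for GRCm38.p6. The letters CACGTG, an E-box, occurred on either strand in the window of *Sms* and in no window of the other 5 matched genes, and in 7.15% of all 32851 windows. The letters GGAATG, the core of TEAD motifs, occurred in 0 of the 6 and in 14.7% of all windows. No match says only that these letters are not in the window.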

How the data were processed

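Read pairs were aligned by the authors to GRCm38 (TopHat2 2.0.12 and Bowtie2 2.1.0, versions per the labels), and the authors deposited raw counts of uniquely mapped reads per Ensembl gene, made with HTSeq. The annotation release and strand setting of the counting are not given in the sources used here. The labels name a kit for stranded total RNA and the study's methods mRNA libraries. Genes that reached 1 CPM or more in 3 or more of the 6 libraries (15102 of 26579) were scaled with TMM and tested with edgeR 4.0.16 (glmQLFit and glmQLFTest, genotype as the only term, R 4.3.3). Standard errors are the absolute log2 fold change over the square root of F. The study's own tests, voom (limma 3.58.1) and edgeR's likelihood-ratio test, were alternatives here together with DESeq2 1.42.0. Benjamini-Hochberg adjustment covered all tested genes, except for the 5 ratios, which were compared by exact permutation of libraries (scipy 1.17.1). Gene positions, exons and transcripts were taken from GENCODE M21, in which 558 identifiers are absent, and coding sequences were aligned as nucleotides (Biopython 1.88), because protein sequences were not used here. *Pycr3*, *Krt85*, *Flg* and *Ly6g* of the lists had no matching row, and *Amd2*, *Oaz3*, *Slc7a3*, *Nos2*, *Otc*, *Agmat* and *Mat1a* were too low to test.

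The genes and all lists were chosen with earlier results of these data known. Named genes are the 8, the called genes and the 2 with the highest mean CPM of each wider list, and the 3 genes most like *Odc1*. Of the 10 genes and 5 ratios planned, 8 and 4 are reported here. Replicate numbers were not used to pair the libraries in the main test.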

Additional observations from a re-analysis of the deposited data

How the results depend on the processing

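Of the 8 genes, 0 were called under every alternative except DESeq2's Wald test, which called 2 (log2 fold changes -0.39 for *Oaz2* and -0.30 for *Azin1*). The sign was the same under every alternative for 6 of the 8. *Srm* turned to 0.0029 with upper-quartile scaling, 0.0442 without WT replicate 3 and 0.1118 without TG replicate 1, and *Oaz1* to 0.0046 with upper-quartile scaling, 0.0157 without WT replicate 2 and 0.0115 without TG replicate 1. Of the ratios, *Sat1* to *Odc1* turned to -0.0436 without TG replicate 3, and *Srm* to *Sms* to 0.0103 without WT replicate 3 and 0.1194 without TG replicate 1. Leaving out single libraries moved the log2 fold change of *Srm* between -0.1237 and 0.1118, that of *Oaz1* between -0.0294 and 0.0157, the log2 ratio difference of *Sat1* to *Odc1* between -0.0436 and 0.0682 and that of *Srm* to *Sms* between -0.28 and 0.12.

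Of all tested genes, 288 were called by edgeR's quasi-likelihood test, 1568 by its likelihood-ratio test, 1590 by DESeq2 and 497 without the low-count filter. Leaving out each library in turn gave 0 to 816 calls, namely 142 without WT replicate 1, 86 without TG replicate 1, 816 without TG replicate 2, and 0 without WT replicate 2, WT replicate 3 or TG replicate 3 (unadjusted p under 0.05 for 2725, 2844 and 3692 genes). Of the 40 wider genes, 0 were called in the main setting, 3 by the likelihood-ratio test (*Slc7a2* and *Ddah1* higher, *Ass1* lower), 7 by DESeq2, 1 (*Ddah1*) each with upper-quartile scaling, without the filter and with protein-coding genes only, and 0 to 1 (*Ddah1*, without TG replicate 2) with single libraries left out. The causes were not tested.

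Same-numbered libraries of the genotypes did not deviate together (correlations -0.34, -0.24 and -0.06 over 15102 genes), so the numbers were not used as a pairing in the main test. Deviations were taken from the genotype mean of each gene, which ties these correlations to each other. WT replicate 2 with TG replicate 1 reached 0.28. Which mice shared a litter is not given in the sources used here, and a pairing in another order was not tested. With the replicate number as a block, 0 of all tested genes were called in edgeR's quasi-likelihood test, with 2949 at an unadjusted p under 0.05. The older quasi-likelihood form, protein-coding genes only and the principal transcript length were added after seeing the data.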
